A study of Mus musculus with 54 samples.

Results

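The genes described here are 10 imprinted genes that act on growth: H19, Igf2, Dlk1, Meg3, Peg3, Peg13, Grb10, Cdkn1c, Igf2r and Plagl1. They were chosen by name from what is known of imprinting, with earlier results of these data known. All 10 were found among the 16772 genes of the deposited table. RNA was measured by bulk sequencing in 54 libraries from the prostate tumours of 48 mice in 11 groups. At 12 weeks there were 4 intact mice each of the genotypes DKO, DKO_EE and DKO_EP. At intact endstage there were 3 DKO mice (35 to 46 weeks), 8 DKO_EE mice (28 to 42 weeks) and 3 DKO_EP mice (39 to 52 weeks). At castrated endstage, after castration at 12 weeks, there were 4 DKO mice (39 to 99 weeks), 5 DKO_EE mice (35 to 59 weeks) and 5 DKO_EP mice (34 to 37 weeks). Castrated TKO mice received vehicle (4 mice, 15 to 19 weeks) or CPI1688, an inhibitor of Ezh2 (4 mice, 18 to 19 weeks). DKO_EE and DKO_EP are DKO mice that also carry deletions of Ezh2, so every DKO_EE and DKO_EP comparison is made on the DKO background. The genes deleted in DKO and TKO, the number of Ezh2 alleles deleted in DKO_EE and DKO_EP, the Cre driver and the dose of CPI1688 are not given in the sources used here. Where nothing says that samples are independent beyond being separate mice, the p-values measure only the spread between these mice.

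An imprinted gene is transcribed mainly from the allele inherited from one parent, and DNA methylation placed in the germ line marks which allele that is. Many imprinted genes act as a pair of opposites in growth: Igf2, a secreted growth factor, is expressed from the paternal allele, while Igf2r, the receptor that carries Igf2 to lysosomes for breakdown, is expressed from the maternal allele in mouse. H19 and Meg3 are long noncoding RNAs of the maternal allele, each paired with a paternally expressed growth gene on the same chromosome, Igf2 and Dlk1. Polycomb repressive complex 2, whose catalytic subunit is Ezh2, marks the silent allele at several of these domains. The values below are totals over both alleles: they do not separate maternal from paternal RNA and do not measure imprinting itself.

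All 10 genes are placed on GRCm38 in the GENCODE M21 annotation. H19 (chr7:142575529-142578143) and Igf2 (chr7:142650766-142666816) lie on the minus strand with 72623 bases between them. Cdkn1c (chr7:143458339-143461050) is on the same chromosome, in a neighbouring domain. Dlk1 (chr12:109452823-109463336) and Meg3 (chr12:109541001-109571726) lie on the plus strand 77665 bases apart. Peg3 (chr7:6703892-6730431, minus strand) starts 147 bases from Usp29, which runs the other way. Peg13 (chr15:72805600-72810324) is a noncoding gene inside an intron of Trappc9. Grb10 is at chr11:11930508-12038683, Igf2r at chr17:12682406-12769664 and Plagl1 at chr10:13060504-13131694. The antisense RNA Airn starts inside Igf2r.

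RefSeq promoter sequences (GRCm38.p6, 250 bases before to 50 bases after a start) were held for 7 of the 10 genes; H19, Cdkn1c and Peg13 had no entry. The promoters of Peg3, Meg3 and Igf2r are shown because the results turn on these genes: Peg3 and Meg3 moved with the neighbouring genes Usp29 and Rian, and Igf2r differed between DKO_EE and DKO in castrated mice. Capitals mark the dinucleotide CG, which reads the same on both strands and is where vertebrate DNA is methylated. The Peg3 window also holds the start of Usp29 at base 6730578.
Peg3, chr7:6730370-6730669, minus strand: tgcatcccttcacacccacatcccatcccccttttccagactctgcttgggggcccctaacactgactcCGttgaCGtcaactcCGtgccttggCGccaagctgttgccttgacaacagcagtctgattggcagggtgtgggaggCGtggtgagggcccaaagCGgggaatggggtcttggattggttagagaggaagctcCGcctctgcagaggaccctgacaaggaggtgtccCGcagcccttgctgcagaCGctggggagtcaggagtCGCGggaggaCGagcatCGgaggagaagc
Meg3, chr12:109540746-109541045, plus strand: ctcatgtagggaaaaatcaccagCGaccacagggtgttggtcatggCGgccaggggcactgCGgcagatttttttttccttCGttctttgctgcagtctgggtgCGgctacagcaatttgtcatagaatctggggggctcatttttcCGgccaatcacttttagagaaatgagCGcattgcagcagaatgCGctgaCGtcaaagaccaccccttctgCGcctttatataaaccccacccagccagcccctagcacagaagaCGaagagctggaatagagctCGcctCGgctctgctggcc
Igf2r, chr17:12769657-12769956, minus strand: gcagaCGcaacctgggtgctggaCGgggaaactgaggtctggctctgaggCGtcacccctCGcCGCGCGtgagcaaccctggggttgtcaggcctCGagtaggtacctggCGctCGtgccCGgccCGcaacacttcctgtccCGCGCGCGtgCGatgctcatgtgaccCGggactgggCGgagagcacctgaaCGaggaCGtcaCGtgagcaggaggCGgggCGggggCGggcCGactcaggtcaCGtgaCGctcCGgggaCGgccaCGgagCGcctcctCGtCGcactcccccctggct
The windows of Peg3 and Meg3 each held 13 CG dinucleotides, a number reached by 37.9% of the 32851 promoters of the same length. The Igf2r window held 34, a number reached by 7.73% of promoters, and the median over all promoters was 7. Methylation was not measured.

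Libraries held 3687048 to 9741808 reads, and values are log2(normalized count + 1), so a difference of 1 is a doubling except near 0. The targeted gene was checked first: Ezh2 RNA stood at 7.60 ± 0.20 (SD, n = 4) in 12-week DKO_EE against 8.40 ± 0.22 (n = 4) in DKO, at 8.28 ± 0.49 (n = 8) against 9.61 ± 0.23 (n = 3) at intact endstage, and at 8.46 ± 0.47 (n = 5) against 9.36 ± 0.62 (n = 4) in castrated mice. The difference of Ezh2 passed the test at intact endstage (adjusted p = 0.0194) and missed it at 12 weeks (adjusted p = 0.975) and in castrated mice (adjusted p = 0.0831). DKO_EP stood at 8.22, 9.39 and 9.17, near DKO. Whole-gene counts cannot single out a deleted exon. All 10 neuroendocrine markers rose from 12 weeks to intact endstage in DKO_EP, and 9 of 10 in DKO and in DKO_EE. Of the 10 luminal prostate markers, 5 fell in DKO, 4 in DKO_EE and 5 in DKO_EP, and 0 rose. Of all genes, 36.7%, 50.6% and 44.2% were called in these comparisons in either direction, and the luminal counts are near those shares. Pbsn and Msmb were at 0 in every intact endstage mouse, while the median log2 summed level of the list was 14.53 at endstage against 15.02 at 12 weeks in DKO. Lars2 took 10% or more of the reads in 10 libraries, 5 of the 12 of intact DKO_EE and 5 of the 5 of intact DKO_EP. Skeletal muscle RNA was high in some 12-week mice: Ttn, the giant muscle protein titin, took 0.113% to 2.55% of reads in the 4 DKO mice, 2.28% and 2.53% in DKO_EP mice 2 and 4, and at most 0.0165% in DKO_EE.

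Read per kilobase of exon, as the median normalized count over all mice, Igf2r was the most abundant of the 10 genes at 213.6. Peg3 (67.0), Peg13 (62.1), Cdkn1c (58.8) and Grb10 (56.0) followed close together. Plagl1 stood at 16.8, H19 at 5.20, Meg3 at 4.65 and Igf2 at 1.36, and the median of Dlk1 was 0. Igf2 was at 0 in 9 mice, H19 in 2 and Dlk1 in 27 of 48. The order of H19, Meg3 and Igf2 depends on which groups are taken. In DKO, DKO_EE and DKO_EP all 3 stood lower on average at intact endstage than at 12 weeks (log2 differences -5.99 to -1.67). In castrated TKO mice the mean of H19 was 7.84 with vehicle and 6.51 with CPI1688. The spread between mice of 1 group also differed widely by gene: the pooled within-group SD was 0.39 for Igf2r, 0.46 for Peg13 and 0.57 for Cdkn1c, and 1.22 to 1.54 for H19, Igf2, Meg3, Peg3 and Dlk1.

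**Figure D1:**
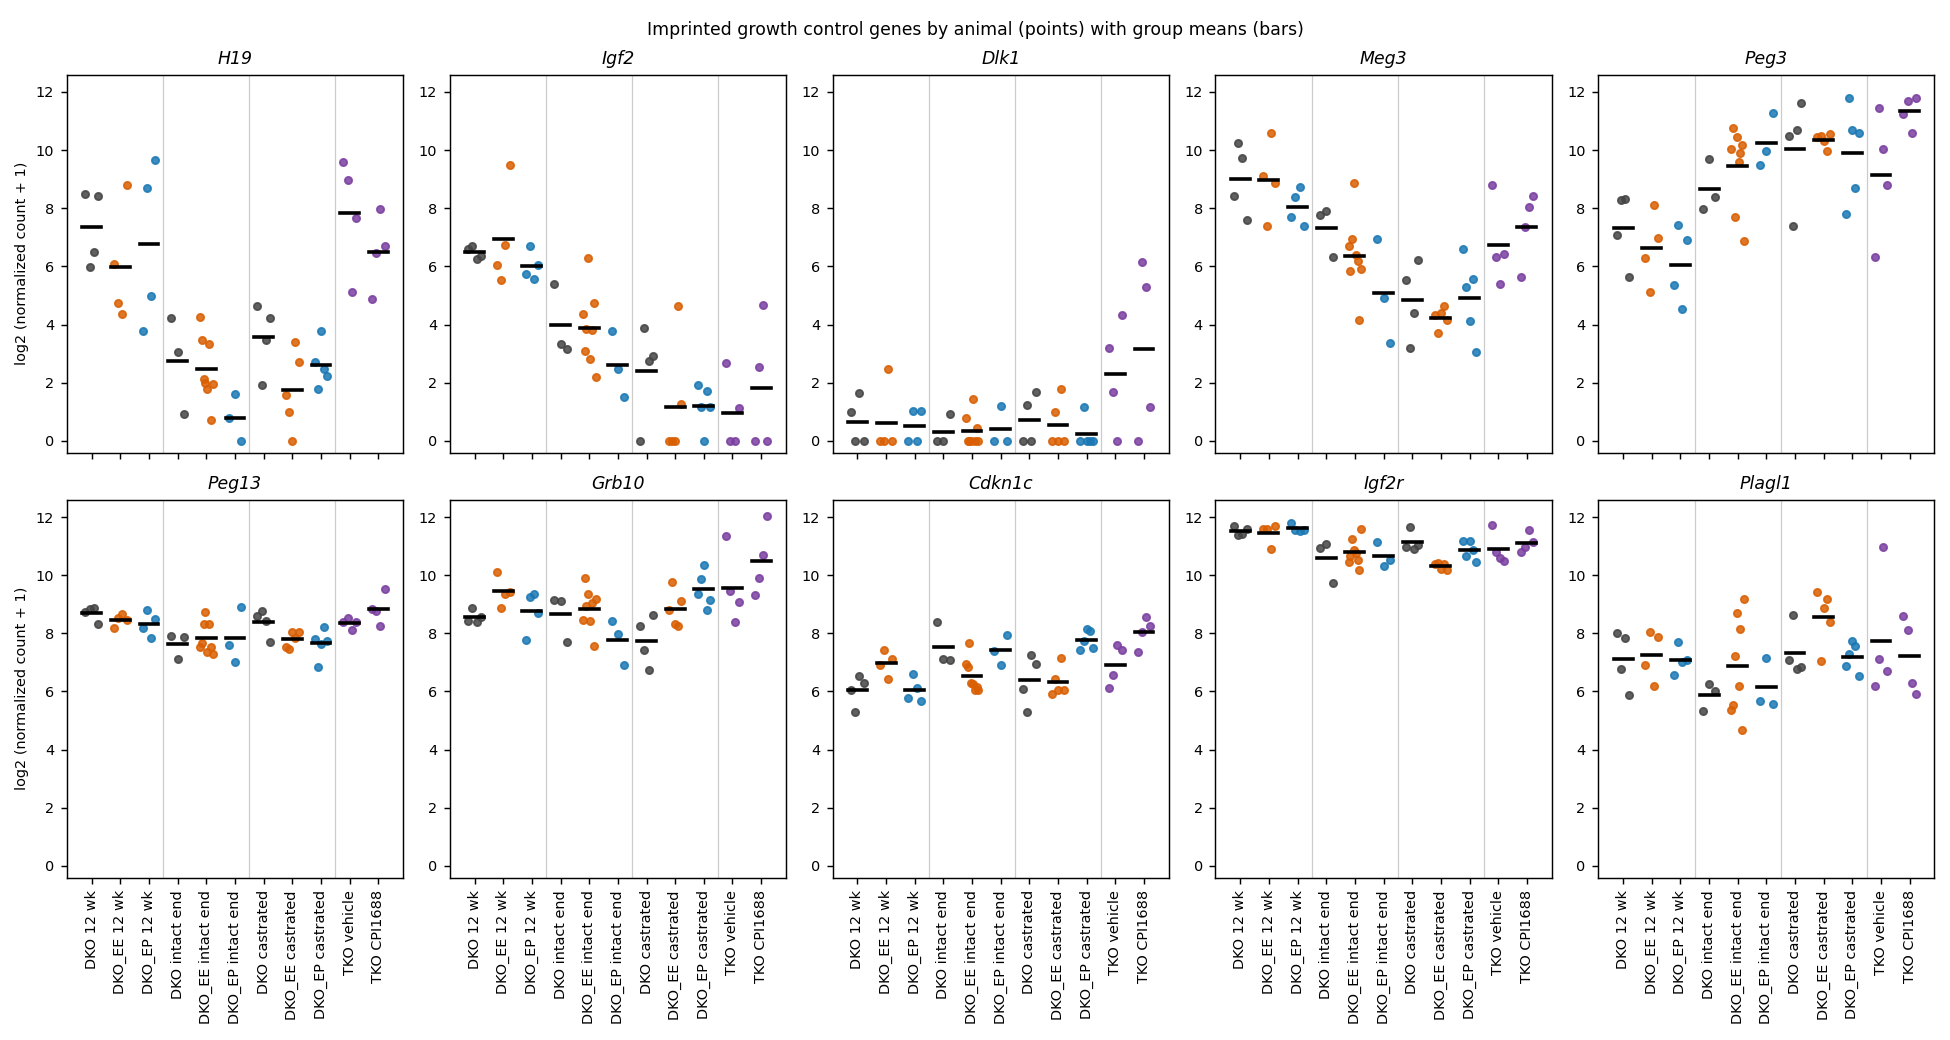
Log2(normalized count + 1) of each of the 10 imprinted genes in every mouse, by group, with 1 point per mouse coloured by genotype and a bar at the group mean. By group mean, Igf2 and Meg3 are highest and Peg3 is lowest at 12 weeks. Among the DKO, DKO_EE and DKO_EP groups H19 is also highest at 12 weeks. In castrated TKO mice the mean of H19 is 7.84 with vehicle and 6.51 with CPI1688. Dlk1 rises above 2.46 only in TKO mice.

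Most calls among the 10 genes were made between 12 weeks and intact endstage. In DKO, 4 of the 10 genes passed the test (1 higher, 3 lower), against 36.7% of all 16772 genes. In DKO_EE it was 5 (1 higher, 4 lower) against 50.6%, and in DKO_EP 6 (2 higher, 4 lower) against 44.2%. These shares of the 10 genes, 40%, 50% and 60%, are near those of all genes, and the count itself is no result about imprinted genes. The 10 genes had a median log2 difference of -0.99 in DKO mice (all genes -0.04), -0.60 in DKO_EE mice (all genes -0.07) and -0.95 in DKO_EP mice (all genes -0.06). Groups did not overlap for 5, 1 and 6 of the 10 genes, against 50.8%, 28.2% and 49.2% of all genes in DKO, DKO_EE and DKO_EP, which is again no result about the 10 genes. None of the tests of whether this change differed by genotype was passed by any of the 10 genes: the DKO_EE minus DKO term called 0.125% of all genes and the DKO_EP minus DKO term 0.00596%, each with 1 of the 10 at an unadjusted p under 0.05. Lars2 took 14.2% to 21.6% of reads in the intact endstage DKO_EP libraries and at most 0.00219% in the 12-week DKO_EP ones. For every gene, this library difference and the DKO_EP change from 12 weeks to endstage cannot be told apart.

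**Figure D2:**
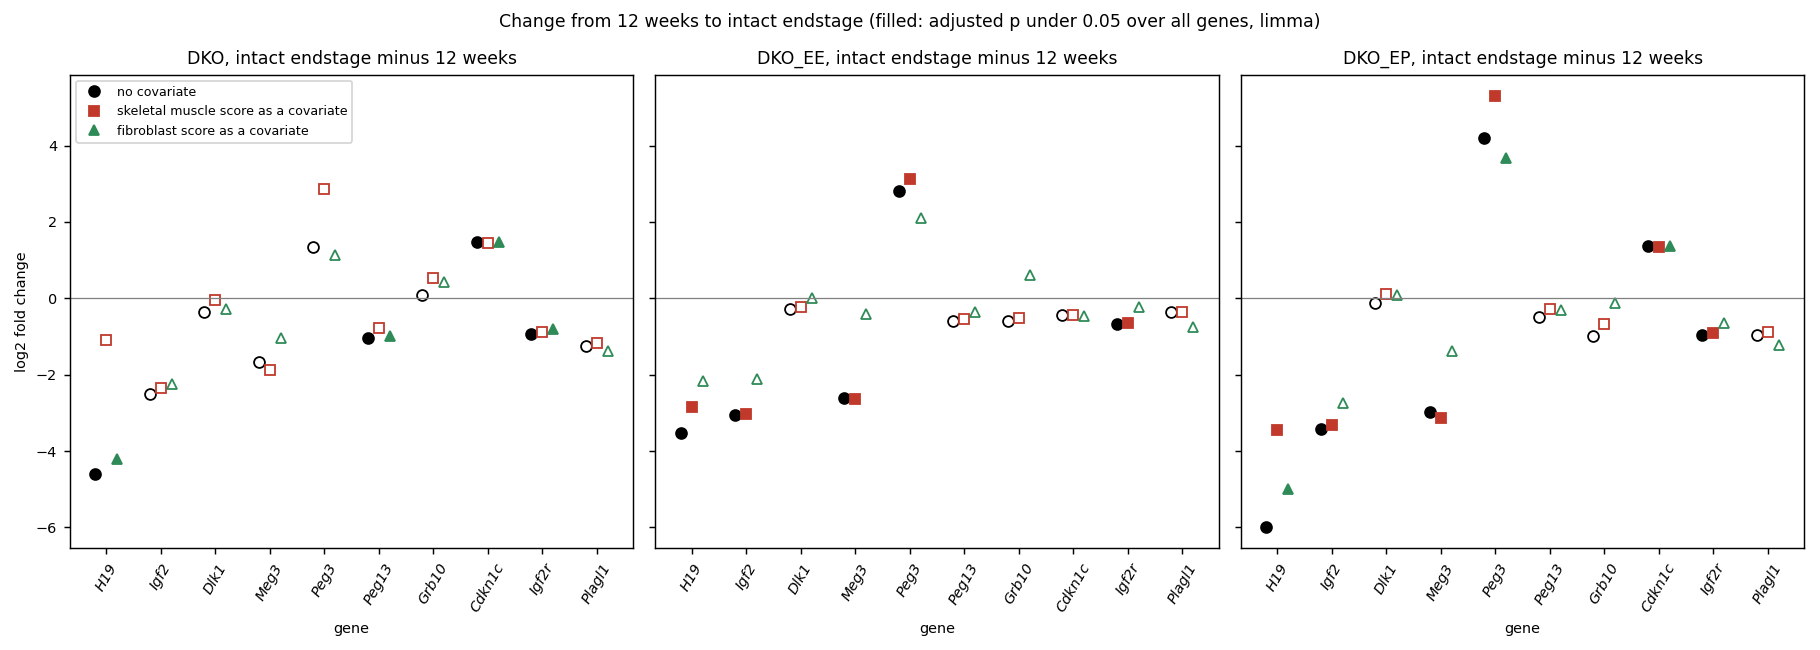
Log2 difference of each of the 10 imprinted genes between intact endstage and 12 weeks, 1 panel each for DKO, DKO_EE and DKO_EP. Circles have no covariate, squares the skeletal muscle score and triangles the fibroblast score in the model, and a filled mark has limma's adjusted p under 0.05. H19 lies between -5.99 and -3.53 without a covariate and at -1.09 in DKO with the muscle score, while Peg3 lies above 0 in each panel.

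H19, a maternally expressed noncoding RNA of embryonic tissues and muscle, fell in all 3 genotypes between 12 weeks and intact endstage. In DKO the 4 mice at 12 weeks stood at 8.49, 5.97, 6.49 and 8.42, and the 3 endstage mice at 4.23, 3.06 and 0.92. In DKO_EE the 12-week mice stood at 6.07, 4.73, 4.38 and 8.79, and the 8 endstage mice between 0.73 and 4.26 with a median of 2.06. In DKO_EP the 12-week mice stood at 3.79, 8.71, 4.99 and 9.67 and the endstage mice at 0.78, 1.63 and 0.00. Every 12-week mouse was above every endstage mouse of its genotype. On the scale with an offset of 1, DKO_EP mice differed in H19 by -5.99 (SE 1.15, adjusted p = 7.04e-05), DKO mice by -4.60 (SE 1.15, adjusted p = 0.00162) and DKO_EE mice by -3.53 (SE 0.919, adjusted p = 0.00162). The endstage values of H19 rest on few reads, 1, 4 and 0 in the DKO_EP mice and 1 in DKO mouse 3, so the offset sets part of these sizes. With an offset of 10 the H19 differences were -3.56, -3.32 and -2.30 in the same order, and each call held.

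Skeletal muscle RNA moved with H19, and so did other marker lists. Over the 48 mice H19 correlated with the skeletal muscle score at r = 0.639. Its correlations with the fibroblast, smooth muscle and basal epithelium scores were 0.676, 0.663 and 0.629. The 2 DKO mice with the most Ttn, mice 1 and 4 with 2.55% and 1.40% of reads, were the 2 with the most H19, and the same held for mice 2 and 4 of DKO_EP. Of 12 skeletal muscle markers, 12 fell in DKO, 2 in DKO_EE and 10 in DKO_EP, against 36.7%, 50.6% and 44.2% of all genes called. Their summed level, the log2 of their added normalized counts, ranged from 13.52 to 18.13 in 12-week DKO and from 7.42 to 10.92 at endstage, and Myh4 and Pvalb were at 0 in all endstage DKO mice. With the muscle score in the model H19 stood at -1.09 in DKO (adjusted p = 0.58), -2.83 in DKO_EE (adjusted p = 0.00271) and -3.44 in DKO_EP (adjusted p = 0.015). DKO_EE at 12 weeks had little muscle RNA, and its mouse 4 still held H19 at 8.79 with Ttn at 0.00551% of reads. With a fibroblast score in the model the DKO_EE difference was -2.17 (adjusted p = 0.119). In bulk tissue, fewer cells of a type and less RNA per cell cannot be told apart.

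Castrated TKO mice held far more H19 than castrated DKO mice. The vehicle-treated TKO mice stood at 9.58, 8.96, 5.14 and 7.66 and the castrated DKO mice at 4.64, 1.91, 3.47 and 4.23, with no overlap. The difference was 4.28 (SE 1.06, adjusted p = 0.048), and H19 was the only one of the 10 genes called in this comparison, in which 0.566% of all genes were called. The call sits at the threshold: it was lost in limma-voom on whole reads (adjusted p = 0.346) and when any 1 of DKO mice 2 to 4 or TKO mice 1, 2 and 4 was left out (3.69 to 4.50). TKO mice were also younger, and TKO vehicle mice 2 and 3 had Ttn at 0.404% and 0.142% of reads, while mouse 1, with the most H19, did not; genotype and age cannot be told apart here.

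Igf2, the growth factor paired with H19, was lower at endstage in DKO_EE and DKO_EP. The 12-week DKO mice stood at 6.59, 6.71, 6.27 and 6.35, and the endstage mice at 5.39, 3.34 and 3.18. The 12-week DKO_EE mice stood at 6.04, 5.55, 6.73 and 9.48, and the 8 endstage mice between 2.19 and 6.29 with a median of 3.84. The 12-week DKO_EP mice stood at 5.74, 6.69, 5.57 and 6.04, and the endstage mice at 3.79, 2.47 and 1.52. The groups did not overlap in DKO and DKO_EP and overlapped in DKO_EE. Igf2 fell in DKO_EE (-3.05, SE 0.847, adjusted p = 0.00293) and DKO_EP (-3.42, SE 1.06, adjusted p = 0.00827), and in DKO the difference of -2.51 (SE 1.06) missed the threshold (adjusted p = 0.0584). The DKO difference of Igf2 passed with an offset of 10 (-1.92, adjusted p = 0.00861), with only the compared groups in the fit (adjusted p = 0.00719), with quantile normalization (adjusted p = 0.0496) and without endstage mouse 1 (-3.22, adjusted p = 0.0363). With the fibroblast score in the model the difference was -2.11 in DKO_EE (adjusted p = 0.111) and -2.73 in DKO_EP (adjusted p = 0.0535), so neither call held, and the DKO_EP call was lost without intact mouse 3 (-2.88, adjusted p = 0.0575). The reads of Igf2 could in part belong to Gm49394, which shares 3596 exon bases on the same strand, and to the antisense gene Igf2os, which shares 98; the strand setting of the counting is not given in the sources used here.

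Castrated DKO_EE mice held still less Igf2 than intact ones. Castrated mice stood at 0.00, 0.00, 0.00, 4.65 and 1.26, so 3 of 5 had no read, and the difference from intact mice was -2.72 (SE 0.789, adjusted p = 0.012). Castrated DKO (0.00, 3.88, 2.75 and 2.93) and DKO_EP mice (1.91, 1.15, 0.00, 1.72 and 1.16) differed from intact ones by -1.58 and -1.41, with adjusted p = 0.366 and 0.525. These levels rest on few reads, and with an offset of 10 in place of 1 the DKO_EE difference of Igf2 was -1.11 (adjusted p = 0.0813). Igf2 and Meg3 were the 2 genes of the 10 called between castrated and intact DKO_EE, where 16.5% of all genes were called.

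The balance of H19 against Igf2, the log2 difference within each mouse, did not pass a test in any of the 3 Ezh2 comparisons. It stood at 4.69 ± 1.49 (n = 4) with CPI1688 and 6.88 ± 1.58 (n = 4) with vehicle (exact two-sided permutation p = 0.0857, adjusted over 6 tests 0.514; the smallest possible p is 0.0286). In castrated DKO_EE it was 0.56 ± 1.18 (n = 5) against 1.17 ± 2.72 (n = 4) in DKO (exact permutation p = 0.714). In intact DKO_EE it was -1.44 ± 1.79 (n = 8) against -1.23 ± 0.99 (n = 3) (exact permutation p = 0.897). Igf2 was at 0 in 2 of 4 vehicle, 2 of 4 CPI1688, 3 of 5 castrated DKO_EE and 1 of 4 castrated DKO mice. It held at most 4, 19, 20 and 10 reads in these groups. In such mice the balance sets H19 against a value at or near 0. Across the 48 mice H19 and Igf2 correlated at r = 0.371, and at 0.362 with group means removed, a description over mice that share groups and library composition.

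Igf2r, the receptor that clears Igf2, was the gene of the 10 called in a comparison by Ezh2 genotype. The 5 castrated DKO_EE mice stood at 10.39, 10.42, 10.21, 10.38 and 10.19, and the 4 castrated DKO mice at 10.98, 11.67, 10.90 and 11.04. Every DKO_EE mouse was below every DKO mouse, and the spread within DKO_EE was an SD of 0.11. Igf2r was lower by 0.83 (a log2 difference of -0.83, SE 0.177, adjusted p = 0.0156), in a comparison in which 7.72% of all genes were called. Castrated DKO_EP mice stood between, at 11.16, 10.65, 11.17, 10.86 and 10.46. They differed from DKO by -0.29 (adjusted p = 0.437), and DKO_EE was below DKO_EP by a log2 difference of -0.54 with no overlap (adjusted p = 0.147).

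Fibroblast markers moved the same way in this comparison: 8 of 12 were lower in castrated DKO_EE, against 7.72% of all genes called. Thy1 stood at 5.78 against 8.44, Lum at 4.45 against 8.41 and Dcn at 6.87 against 10.12. The summed level of the 12 markers ranged from 12.58 to 13.90 in castrated DKO_EE and from 14.22 to 15.50 in castrated DKO. No marker was at 0. The summed level of 8 basal epithelium markers was also lower, at 10.67 to 11.57 in castrated DKO_EE against 12.36 to 16.03 in castrated DKO. Over the 48 mice Igf2r correlated with the basal epithelium score at r = 0.733 and with the fibroblast score at 0.679. With the fibroblast score in the model the Igf2r difference was -0.45 (adjusted p = 0.902), and with age it was -0.68 (adjusted p = 0.106). At intact endstage Igf2r did not follow the Ezh2 genotype: DKO mice stood at 10.94, 11.07 and 9.73 and the 8 DKO_EE mice between 10.17 and 11.59, a difference of 0.20 (adjusted p = 0.793). The change in the genotype difference with castration was -1.03 (SE 0.36, adjusted p = 0.355), so the test of the difference itself was not passed.

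Igf2r also fell from 12 weeks to intact endstage in all 3 genotypes. The 12-week mice were tightly grouped, at 11.68, 11.38, 11.42 and 11.59 in DKO and at 11.81, 11.55, 11.53 and 11.56 in DKO_EP, while DKO_EE held 11.58, 11.59, 10.91 and 11.71. Intact DKO_EP mice stood at 11.16, 10.31 and 10.51. For DKO_EP mice the difference of Igf2r was -0.95 (SE 0.288, adjusted p = 0.00723), for DKO mice -0.94 (SE 0.288, adjusted p = 0.0097) and for DKO_EE mice -0.67 (SE 0.231, adjusted p = 0.0156). Groups overlapped in DKO_EE only. The Igf2r call was lost in DKO without endstage mouse 3 (-0.51, adjusted p = 0.204) and with the muscle score (-0.89, adjusted p = 0.0937), in DKO_EE and DKO_EP with the fibroblast score (-0.24, adjusted p = 0.521, and -0.64, adjusted p = 0.077), without 12-week DKO_EE mouse 4 (-0.58, adjusted p = 0.0616) and without intact DKO_EP mouse 2 (-0.78, adjusted p = 0.0571). Airn, the paternal antisense RNA that silences Igf2r in the embryo, was also lower at endstage in DKO and DKO_EP, at 5.73 ± 0.49 against 7.28 ± 0.31 in DKO and 5.52 ± 0.67 against 7.06 ± 0.78 in DKO_EP (adjusted p of Airn 0.0044 and 0.0037). In DKO_EE Airn stood at 6.18 ± 0.83 against 6.81 ± 0.25 and was not called (-0.63, adjusted p = 0.125). Across 48 mice Igf2r and Airn correlated at r = 0.619, and at 0.643 with group means removed; Airn shares no exon base with Igf2r but overlaps it.

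Of the other genes of insulin-like growth factor signalling, 19 of 21 listed genes were measured. From 12 weeks to intact endstage 2 rose and 4 fell in DKO (list median -0.61), 6 rose and 7 fell in DKO_EE (-0.28), and 3 rose and 8 fell in DKO_EP (-0.83). These are 31.6%, 68.4% and 57.9% of the list, against 36.7%, 50.6% and 44.2% of all genes. Igf1r, the receptor through which Igf1 and Igf2 signal, fell in DKO, DKO_EE and DKO_EP, with log2 differences of -3.07, -1.95 and -4.90. Igf1, the circulating paralogue of Igf2, fell by 3.27 in DKO_EE (7.56 against 10.83). Insr, the insulin receptor, fell by 0.63 in DKO and fell by 0.75 in DKO_EP. Igfbp2, which binds and sequesters the growth factors, rose by 3.52 in DKO (11.57 against 8.05). Igf2bp3, an RNA-binding protein of Igf2 transcripts, fell by 2.79 in DKO_EE, to 0.20 at endstage. In castrated DKO_EE against DKO, Igfbp4 (6.77 against 9.77, adjusted p = 0.0039) and Igfbp6 (a log2 difference of -3.16) were lower and Igfbp5 (2.06) was higher; at intact endstage Igfbp5 (1.73) and Pappa, a protease of Igf-binding proteins (2.51), were higher in DKO_EE.

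Meg3, the maternal noncoding RNA of the Dlk1 domain, fell in DKO_EE and DKO_EP. The 12-week mice stood at 9.11, 7.37, 10.59 and 8.86 in DKO_EE and at 7.71, 8.39, 8.75 and 7.37 in DKO_EP. The 8 intact endstage DKO_EE mice stood between 4.16 and 8.87 with a median of 6.28, and the DKO_EP mice at 6.94, 4.91 and 3.37. Every endstage DKO_EP mouse was below every 12-week one, while the DKO_EE groups overlapped. Meg3 fell by 2.61 in DKO_EE (SE 0.722, adjusted p = 0.00285) and fell by 2.98 in DKO_EP (SE 0.901, adjusted p = 0.00695). It shares 1228 exon bases with Gm26906 on the opposite strand. In DKO, mice at 8.41, 10.24, 9.73 and 7.59 were followed by endstage mice at 7.75, 7.91 and 6.32, a difference of -1.67 (adjusted p = 0.147).

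Meg3 was lower again in castrated mice. Castrated DKO_EE mice stood in a narrow band at 4.33, 3.70, 4.38, 4.65 and 4.15, and differed from intact DKO_EE by -2.13 (SE 0.672, adjusted p = 0.022). Castrated DKO mice stood at 5.53, 3.21, 4.40 and 6.21, below all 3 intact DKO mice, with a difference of -2.49 (SE 0.901, adjusted p = 0.0582). In DKO_EP castrated and intact mice differed by -0.16 (adjusted p = 0.978). No one of the 10 genes was called between castrated and intact DKO, although 13.9% of all genes were and 3 of the 10 had an unadjusted p under 0.05; limma-voom on whole reads also called 0.

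Fibroblast markers moved with Meg3: over the 48 mice the correlation with the fibroblast score was 0.806, the highest of the 10 genes. In DKO_EE all 12 fibroblast markers fell from 12 weeks to endstage, in DKO_EP 6 and in DKO 0. Between intact and castrated DKO_EE 3 fell. Of all genes, 50.6%, 44.2%, 36.7% and 16.5% were called in these comparisons in the same order. The DKO_EP count and the castrated count are near those shares. With the fibroblast score in the model the Meg3 differences from 12 weeks to endstage were -0.40 in DKO_EE (adjusted p = 0.667) and -1.38 in DKO_EP (adjusted p = 0.116), and between castrated and intact DKO_EE -1.20 (adjusted p = 0.102). The castrated call was also lost with only the libraries under 10% Lars2 (-1.51, adjusted p = 0.131) in limma-voom (-1.85, adjusted p = 0.317), and without castrated mouse 2 (adjusted p = 0.0587) or intact mouse 4 (adjusted p = 0.0552). The DKO_EP call from 12 weeks to endstage was lost in limma-voom (-2.14, adjusted p = 0.112) and without intact mouse 3 (-2.13, adjusted p = 0.0903). In castrated DKO, by contrast, the difference with the fibroblast score was -2.43 (adjusted p = 0.00538).

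Rian, a noncoding RNA that follows Meg3 on the chromosome with 32214 bases between them, tracked it mouse by mouse, with r = 0.882 over 48 mice and 0.906 with group means removed. It was the gene most like Meg3 by either measure. Rian stood at 5.40 ± 0.94 (n = 8) in intact DKO_EE against 7.98 ± 1.06 (n = 4) at 12 weeks (-2.58, adjusted p = 0.0015). Dio3, a paternally expressed enzyme that inactivates thyroid hormone at the far end of the domain, stood at 2.37 ± 1.41 against 5.22 ± 0.92 (a called fall of 2.85), and correlated with Meg3 at 0.733. Mirg, the most distal noncoding RNA, correlated at 0.228 over all mice and 0.708 within groups, and it was highest in TKO mice (5.30 ± 1.41 and 6.02 ± 1.17). The genes next most like Meg3 were Serping1 (0.846) and Jam2 (0.840).

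Dlk1, a transmembrane Notch-family ligand of fetal progenitor cells and the paternal partner of Meg3, was close to absent in the DKO-type tumours. No mouse outside TKO exceeded 2.46, and 27 of 48 mice had no read. Castrated TKO mice given vehicle stood at 3.18, 1.67, 0.00 and 4.33, and those given CPI1688 at 0.00, 6.14, 5.28 and 1.17. The groups overlapped, and the difference was 0.85 (SE 1.56, adjusted p = 0.9999). Dlk1 and Meg3 correlated at 0.204 over the 48 mice, with most of the Dlk1 values at or near 0. Meg3 minus Dlk1 was 4.22 ± 2.73 (n = 4) with CPI1688 and 4.44 ± 1.62 (n = 4) with vehicle (exact permutation p = 0.943). In the wider Notch list of 18 genes, 8 rose and 4 fell from 12 weeks to endstage in DKO (median 1.55), 9 and 6 in DKO_EE (0.93), and 8 and 5 in DKO_EP (1.01). These are 66.7%, 83.3% and 72.2% of the list, against 36.7%, 50.6% and 44.2% of all genes. The ligand Dll1 rose by 2.63 in DKO, 2.04 in DKO_EE and 2.96 in DKO_EP, while the receptor Notch2 fell by 2.28 in DKO_EE and fell by 2.88 in DKO_EP. The target gene Hes1 fell by 2.14 in DKO.

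Peg3, a paternally expressed zinc finger protein, went the other way from H19, Igf2 and Meg3. The 12-week DKO_EP mice stood at 5.35, 7.41, 4.54 and 6.93 and the endstage mice at 9.50, 9.96 and 11.26. The 12-week DKO_EE mice stood at 6.30, 5.13, 8.10 and 6.98, and the 8 endstage mice between 6.88 and 10.75 with a median of 9.98. Peg3 rose by 4.19 in DKO_EP (SE 0.996, adjusted p = 0.000843), where groups did not overlap, and by 2.81 in DKO_EE (SE 0.799, adjusted p = 0.00353). In DKO, mice at 7.09, 8.30, 8.32 and 5.64 were followed by 7.96, 9.69 and 8.37, a difference of 1.34 (adjusted p = 0.306). The DKO_EP minus DKO term for Peg3 was 2.85 (SE 1.41, adjusted p = 1), so a larger rise in DKO_EP was not shown. With the fibroblast score the DKO_EE difference was 2.10 (adjusted p = 0.0958).

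Usp29, a ubiquitin protease transcribed from the same promoter window in the other direction, followed Peg3 with r = 0.947 over 48 mice and 0.900 with group means removed, and was the gene most like Peg3 among those above the lowest 25% by mean value. Usp29 stood at 1.48 ± 2.12 in 12-week DKO_EE and 5.07 ± 1.38 at endstage (3.59, adjusted p = 0.01), and at 0.26 ± 0.52 and 6.10 ± 0.67 in DKO_EP (5.84, adjusted p = 0.0014). It was highest with CPI1688, at 7.62 ± 0.95. The next most like Peg3 were A230057D06Rik (0.871) and Sncb, a synuclein of neurons (0.854).

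Neuroendocrine markers moved with Peg3. Their summed level was 7.60 to 11.57 in the 12 mice at 12 weeks and 13.99 to 14.60 in the 14 intact endstage mice, and the neuroendocrine score correlated with Peg3 at r = 0.793 over 48 mice. Within groups the 2 went together in some mice and not in others. Castrated DKO mouse 2, killed at 99 weeks, had a summed neuroendocrine level of 8.79 and Peg3 at 7.38, while the other 3 had 14.23 to 14.39 and Peg3 at 10.48, 10.71 and 11.63. TKO vehicle mouse 1 likewise had the lowest neuroendocrine sum of its group, 11.05, and the lowest Peg3, 6.33, against 11.45, 10.04 and 8.80. By contrast, CPI1688 mouse 4 had the lowest neuroendocrine sum of its group, 13.17, and the highest Peg3, 11.78. TKO vehicle mouse 2 had a lower sum (13.59) than mice 3 and 4 (14.97 and 14.71) and more Peg3. Intact DKO_EE mouse 8 had a sum of 14.37 and Peg3 at 6.88, the lowest Peg3 of its group. That Peg3 value is the mean of pieces at 9.88 and 3.88. Igf2r ran the opposite way (r = -0.720 with the same score). Whether these differences reflect the share of neuroendocrine cells was not tested.

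**Figure D3:**
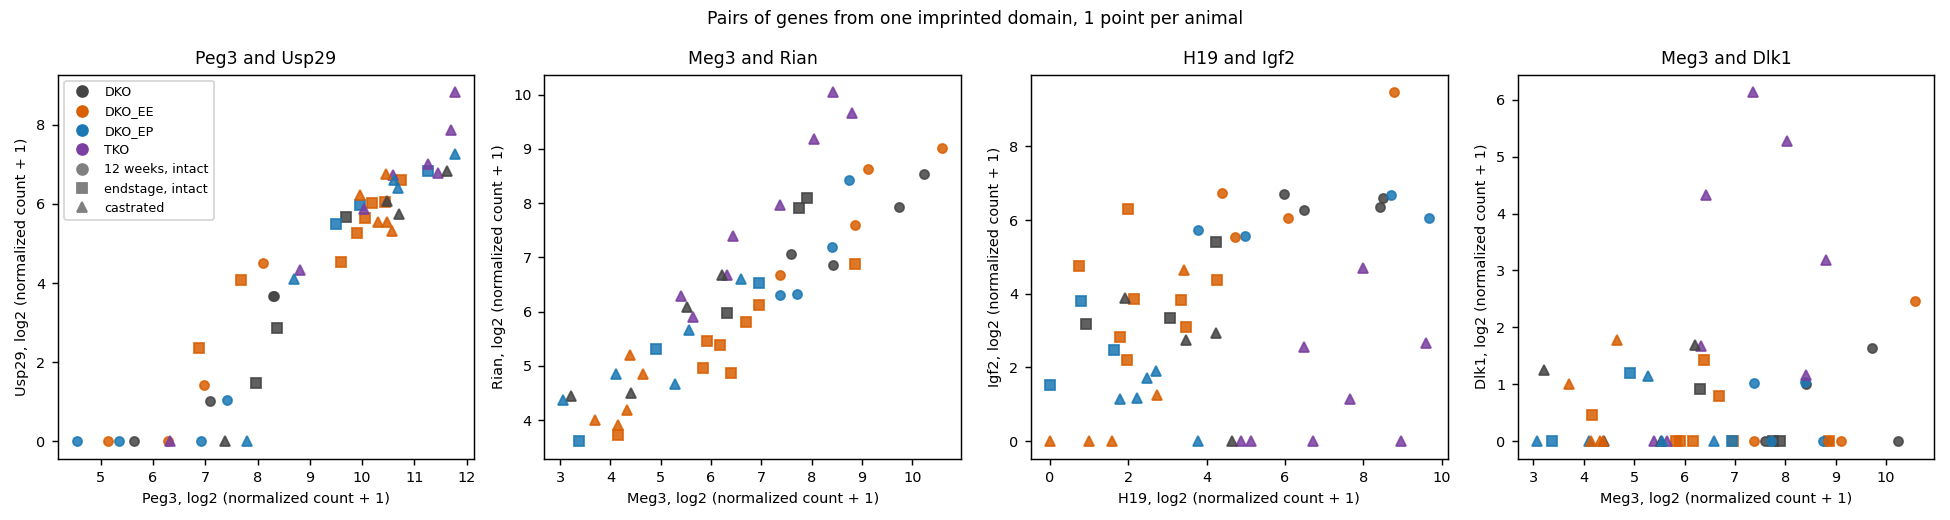
Log2(normalized count + 1) of neighbouring imprinted genes plotted against each other, 1 point per mouse (48 mice) coloured by genotype and shaped by setting. Peg3 and Usp29 (r = 0.947) and Meg3 and Rian (r = 0.882) lie along a line, while H19 and Igf2 (r = 0.371) and Dlk1 and Meg3 (r = 0.204) scatter.

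Peg13, a noncoding RNA of the Trappc9 domain, was among the steadiest of the 10 genes. It fell in DKO from 8.74, 8.84, 8.86 and 8.33 at 12 weeks to 7.92, 7.12 and 7.89 at endstage, with no overlap (-1.05, SE 0.347, adjusted p = 0.0159). The differences in DKO_EE (7.84 ± 0.54, n = 8, against 8.45 ± 0.20, n = 4) and DKO_EP (7.84 ± 0.96, n = 3, against 8.32 ± 0.41, n = 4) did not pass, with adjusted p = 0.0667 and 0.265. The DKO call was lost with the muscle score in the model (-0.78, adjusted p = 0.231) and without endstage mouse 2 (-0.79, adjusted p = 0.122), and the DKO_EE difference passed in limma-voom (-0.70, adjusted p = 0.0156) and with only the libraries under 10% Lars2 (-0.69, adjusted p = 0.0163). The DKO_EP difference passed without intact mouse 3 (-1.01, adjusted p = 0.0252). Trappc9, the host gene, stood at 9.35 ± 0.11 (n = 3) at endstage against 8.94 ± 0.14 (n = 4) at 12 weeks in DKO. The pair correlated at -0.411 over 48 mice and at 0.02 with group means removed.

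Grb10, an adaptor protein that dampens signalling from the insulin and Igf1 receptors, was higher in castrated than intact DKO_EP. The 5 castrated mice stood at 9.36, 9.87, 10.37, 8.81 and 9.14 and the 3 intact mice at 8.43, 7.97 and 6.92, with no overlap. The difference was 1.74 (SE 0.554, limma's adjusted p = 0.0351). Grb10 was the only gene of the 10 called there, against 9.87% of all genes. Lars2 took 14.2% to 21.6% of reads in the intact DKO_EP libraries and at most 0.00482% in the castrated ones. This library difference and castration cannot be told apart here. The call was lost when 1 library per mouse was used (1.54, adjusted p = 0.117), in limma-voom on whole reads (1.62, adjusted p = 0.114) and when castrated mouse 2 or 3 or intact mouse 2 or 3 was left out (1.31 to 1.83). In castrated DKO the mice stood lower, at 8.25, 7.41, 6.73 and 8.62, so that castrated DKO_EP was above DKO by 1.76 with no overlap (SE 0.425, adjusted p = 0.139), in a comparison that called 0.0302% of all genes. Castrated DKO_EE mice stood at 8.81, 9.76, 8.32, 8.23 and 9.12. Neither the castrated comparison nor the term for DKO_EP minus DKO, castrated minus intact (2.64, SE 0.801, adjusted p = 0.627), passed. The highest Grb10 values of the study, 11.35 and 12.04, were in 1 vehicle and 1 CPI1688 mouse of TKO. Col11a1, a collagen, was the gene most like Grb10 over 48 mice (r = 0.749), before Bcat1 (0.716) and Adamts14 (0.715).

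Cdkn1c, which encodes the cyclin-dependent kinase inhibitor p57, rose toward endstage in DKO and DKO_EP. The DKO mice went from 6.05, 5.29, 6.54 and 6.30 to 8.40, 7.11 and 7.07, and the DKO_EP mice from 5.78, 6.60, 6.10 and 5.69 to 7.39, 6.92 and 7.96. Neither pair of groups overlapped. Cdkn1c rose by 1.48 in DKO (SE 0.428, adjusted p = 0.00603) and by 1.38 in DKO_EP (SE 0.428, adjusted p = 0.00844). In DKO_EE the 12-week mice were already at 6.91, 7.41, 6.43 and 7.10, and the 8 endstage mice stood between 6.04 and 7.67 with a median of 6.27, a difference of -0.43 (adjusted p = 0.302). The DKO_EE minus DKO term was -1.91 (SE 0.549, unadjusted p = 0.00123, adjusted p = 0.149), the smallest p of the 10 genes and not past the threshold. The DKO call was lost without endstage mouse 1 (1.04, adjusted p = 0.0873) and with the muscle score (1.45, adjusted p = 0.0645), and the DKO_EP call without endstage mouse 3 (1.11, adjusted p = 0.0687).

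Castrated DKO_EP mice held Cdkn1c at 7.43, 7.73, 8.16, 8.07 and 7.49, above all 4 castrated DKO mice (6.08, 5.31, 7.25 and 6.95) and all 5 castrated DKO_EE mice (5.92, 6.44, 6.04, 7.16 and 6.06). The difference from DKO was 1.38 (SE 0.377, adjusted p = 0.181), and DKO_EE was lower than DKO_EP by a log2 difference of -1.45 (SE 0.355, adjusted p = 0.0618). The second difference was past the threshold in limma-voom (adjusted p = 0.0357) when all 11 groups shared 1 fit (adjusted p = 0.0159) and without DKO_EE mouse 4 (adjusted p = 0.0366). Cdkn1c has no shared exon base on its own strand, but shares 625 with the antisense Gm44732. Of the 14 other cyclins, kinases and inhibitors listed, 6 rose and 2 fell in DKO from 12 weeks to endstage (median 0.62), 6 and 3 in DKO_EE (0.48), and 7 and 4 in DKO_EP (0.63). These are 57.1%, 64.3% and 78.6% of the list, against 36.7%, 50.6% and 44.2% of all genes. Ccne1, cyclin E1, rose by 2.80, 2.26 and 2.25, and the kinase inhibitor Cdkn2d by 3.09, 2.76 and 2.66. The genes most like Cdkn1c over 48 mice were Rbfox1 (0.726), an RNA-binding protein of neurons, Miat (0.720) and Dpp10 (0.705).

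Plagl1, a paternally expressed zinc finger transcription factor, was not called in any comparison. Its intact DKO_EE mice were spread from 4.68 to 9.18, and their SD of 1.68 was the widest of the endstage DKO-type groups. Castrated DKO_EE mice stood at 9.41, 7.03, 8.86, 9.18 and 8.40 and castrated DKO mice at 7.07, 8.62, 6.78 and 6.85, a difference of 1.25 (SE 0.485, adjusted p = 0.133). Without DKO mouse 2, the 99-week mouse with few neuroendocrine transcripts, it was 1.68 (adjusted p = 0.0324), and without DKO_EE mouse 2 it was 1.63 (adjusted p = 0.0391). Against intact DKO_EE the castrated mice differed by 1.70 (SE 0.665, adjusted p = 0.0782). In limma-voom the latter was 1.86 (adjusted p = 0.0253).

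**Figure D4:**
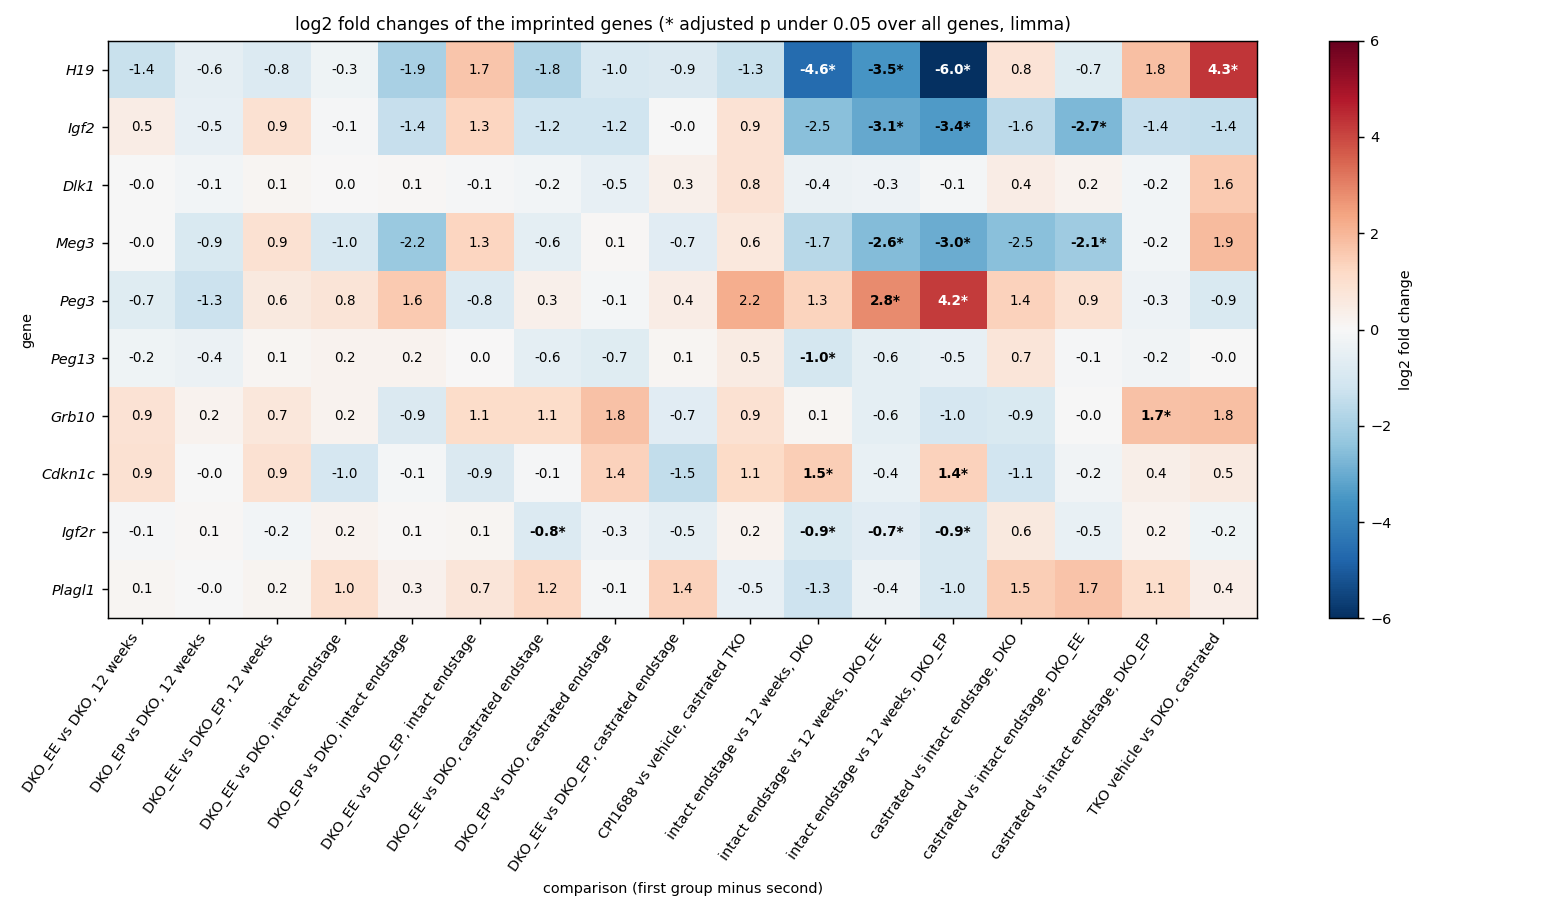
Log2 differences of the 10 imprinted genes (vertical axis) in each comparison (horizontal axis, first group minus second), as numbers on a colour scale from blue for lower to red for higher. Stars mark limma's adjusted p under 0.05: most lie in the comparisons of intact endstage with 12 weeks, and 1, that of Igf2r, lies in a comparison by Ezh2 genotype.

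Taking the Ezh2 comparisons as a set, 1 call among the 10 genes was made, that of Igf2r in castrated DKO_EE against DKO. At 12 weeks, 0 of the 10 were called in DKO_EE against DKO, DKO_EP against DKO or DKO_EE against DKO_EP, and limma called 0 genes in all (0% of genes each); 2, 0 and 1 of the 10 had an unadjusted p under 0.05, as did 796, 449 and 593 of all 16626 genes, and limma-voom on whole reads called 0. At intact endstage the comparisons called 1.66% of genes for DKO_EE against DKO, 0% for DKO_EP against DKO and 1.63% for DKO_EE against DKO_EP, with 0 of the 10 in each, and 1, 1 and 3 at an unadjusted p under 0.05. In castrated mice, 5 of the 10 had an unadjusted p under 0.05 in DKO_EE against DKO, which called 7.72% of genes and 1 of the 10. DKO_EP against DKO called 0.0302% of genes and DKO_EE against DKO_EP 1.7%, with 0 of the 10 in each and 3 and 3 at an unadjusted p under 0.05. DKO_EE minus DKO and DKO_EP minus DKO for castrated minus intact called 0.0119% and 0.0238% of genes and 0 of the 10, with 1 and 2 at an unadjusted p under 0.05. The comparisons within a setting share the DKO mice, so their values are not independent.

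CPI1688 against vehicle in castrated TKO mice called 0 genes (0%), with 337 genes and 1 of the 10, Cdkn1c, at an unadjusted p under 0.05, and limma-voom called 0. Peg3 stood at 11.26, 11.70, 10.59 and 11.78 with CPI1688 and at 6.33, 11.45, 10.04 and 8.80 with vehicle, a difference of 2.18 (SE 0.962, adjusted p = 0.9999). Cdkn1c stood at 7.36, 8.06, 8.56 and 8.25 against 6.12, 6.56, 7.61 and 7.41, a difference of 1.13 (SE 0.401, adjusted p = 0.9999). H19 stood at 4.86, 6.47, 7.98 and 6.70 with CPI1688, a difference of -1.33 (adjusted p = 0.9999). All 3 pairs of groups overlapped. The median difference of the 10 genes was 0.74, against 0.02 for all genes.

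Genes of the Polycomb complex and of imprint maintenance were listed as well, and their calls are set beside the 36.7%, 50.6% and 44.2% of all genes called in DKO, DKO_EE and DKO_EP. Of 11 measured genes of 12 listed for the complex, 6 rose and 2 fell in DKO (median 0.45), 5 and 1 in DKO_EE (0.37), and 6 and 0 in DKO_EP (0.50), or 72.7%, 54.5% and 54.5% of the list. Phf19, an accessory subunit, rose by 3.12, 3.54 and 3.23, and Suz12, a core subunit, by 0.86 in DKO and 0.64 in DKO_EE. Suz12 was also higher in castrated DKO_EE than in DKO (0.57, adjusted p = 0.032). Of 12 measured genes of 13 listed for keeping imprints, 7 rose and 1 fell in DKO (median 0.52), 7 and 1 in DKO_EE (0.44), and 6 and 1 in DKO_EP (0.55), or 66.7%, 66.7% and 58.3% of the list. Dnmt1, which copies DNA methylation at replication, rose by 1.55, 1.73 and 2.01, and Uhrf1, which guides it to newly copied DNA, by 1.51, 1.47 and 1.53. Zfp57, which protects methylated imprints in the embryo, was the gene that fell, with log2 differences of -2.29, -2.53 and -3.26.

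Other genes of the imprinted domains moved in both directions. Of 28 measured of 34 listed neighbours, 4 rose and 9 fell in DKO (median -0.30), 7 and 9 in DKO_EE (-0.67), and 6 and 6 in DKO_EP (-0.79). These are 46.4%, 57.1% and 42.9% of the list, near the 36.7%, 50.6% and 44.2% of all genes. Next to Grb10, Ddc, the decarboxylase that makes dopamine and serotonin, rose by 7.01 in DKO, 5.31 in DKO_EE and 7.37 in DKO_EP. Fignl1 rose by 2.46, 1.60 and 2.09 in the same order, while Grb10 itself was not called. Next to H19, Mrpl23 was lower in castrated than intact mice of all 3 genotypes (-1.78, -1.84 and -2.08) and Ago2, near Peg13, was higher (1.44, 1.08 and 1.23). Whether intact and castrated tumours were sequenced together is not given in the sources used here, and such a difference cannot be told apart from castration.

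Values also differed between separate pieces of the same prostate. In 6 intact endstage mice, 2 pieces were sequenced, named AP, DP or LP in the titles, and the values above are their means. Igf2 stood at 8.53 in the DP piece of DKO_EE mouse 7 and 0.95 in its LP piece, a log2 difference of 7.58. Peg3 stood at 9.88 in the DP-LP piece and 3.88 in the AP piece of DKO_EE mouse 8. Lars2 took 0.00853% of reads in that DP-LP piece and 19.0% in that AP piece, and whether this bears on Peg3 was not tested. Meg3 stood at 7.25 and 2.57 in the DP and AP pieces of DKO_EP mouse 2, with 71 and 3 reads. The median difference between pieces was 2.07 for Igf2, 1.87 for Meg3, 1.51 for H19 and 1.29 for Peg3. The within-group SDs between mice, a different measure, were 1.22 to 1.54. The H19 pieces held 0 to 7 reads each. The Igf2 pieces held 1 to 14, except for 423 in the DP piece of DKO_EE mouse 7. The medians of these genes thus rest on few reads. For Igf2r, Peg13 and Cdkn1c the pieces differed by at most 0.66, 0.66 and 0.80. 

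**Figure D5:**
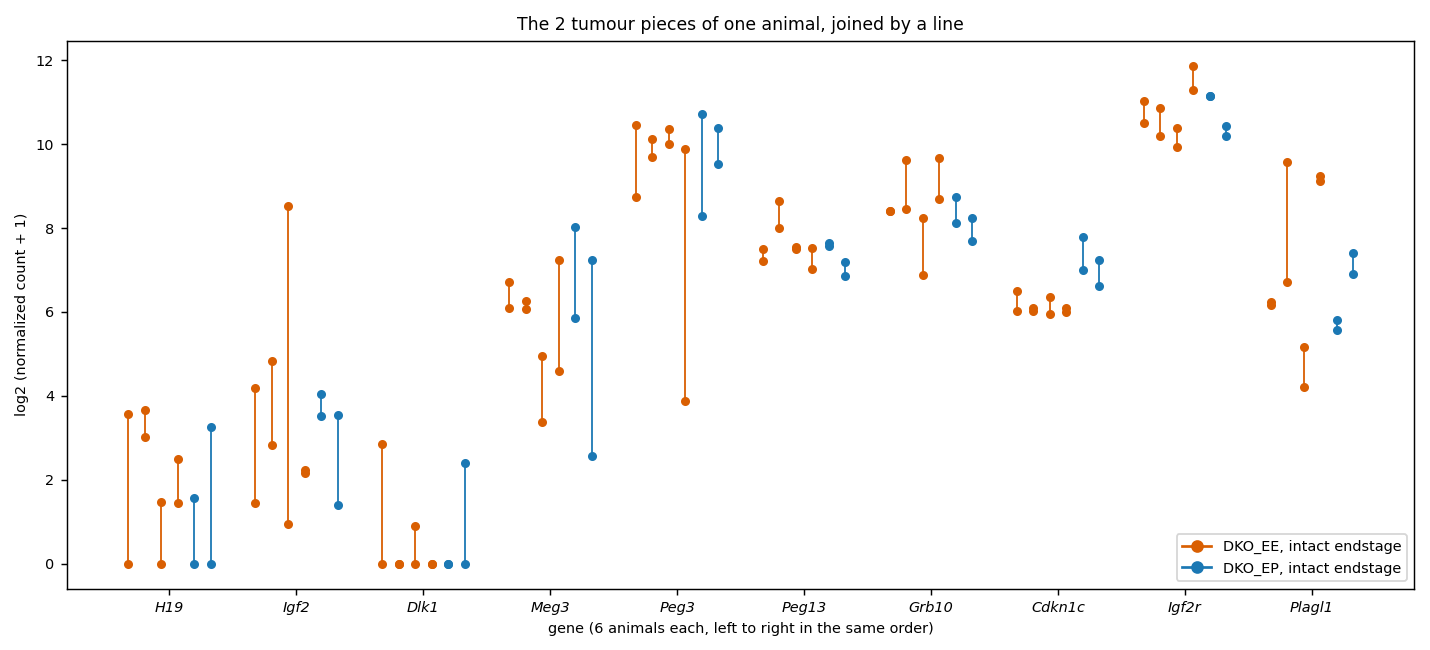
Log2(normalized count + 1) of the imprinted genes in the 2 pieces of each of 6 intact endstage mice, joined by a line per mouse. The lines of Igf2, Peg3 and Meg3 include drops of 7.58, 5.99 and 4.68, while those of Igf2r, Peg13 and Cdkn1c stay within 0.80.

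Among the 10 genes the mice ordered in opposing directions. Igf2 and Meg3 correlated at 0.674 over 48 mice, Igf2 and Peg3 at -0.633, and Peg3 and Igf2r at -0.647 (-0.573 with group means removed). The genes most like H19 were Flnc (0.813), a filamin of muscle, the transcription factor Etv1 (0.773) and Synpo2 (0.772), a muscle actin-binding protein. For Igf2r they were S100a10 (0.852), Vcl (0.840), which encodes vinculin, and the prostate protease Tmprss2 (0.839). Igf2 was most like Ctnnd1 (0.845), Tax1bp3 (0.840) and Tfb2m (0.833). Dlk1 was most like Aspn (0.634), Fap (0.565) and Fam110b (0.560). Peg13 was most like Gabbr1 (0.737), Npr2 (0.730) and N4bp2l1 (0.727). Plagl1 was most like Ppargc1b (0.665), Zmiz2 (0.610) and Lmtk2 (0.609). These are descriptions over mice that share groups, tissue make-up and sequencing depth.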

How the data were processed

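Bulk RNA sequencing of mouse prostate tumours was analysed. Per the labels' protocols, miRNeasy columns gave the RNA, and ribosomal RNA was removed before library preparation. The deposited table holds log2(normalized count + 1) values made by the authors; STAR, RSEM, DESeq2 and limma are named in the submitters' processing notes with the builds GRCm38 and mm10, without versions or roles. In each library 100% of values, undone to a linear scale, were whole multiples of 1 step (tolerance 0.05), which gave 3687048 to 9741808 reads per library. This number limits precision: in the shallower libraries a gene near 0 rests on few reads, and differences between values at or under a floor of 3 reads are within counting error. 2 columns of the table that match no sample were left out. 99.9% of symbols were found in GENCODE M21.

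Pieces of 1 mouse were averaged on the log2 scale, giving 48 mice. Tests used limma 3.58.1 (moderated, with a mean-variance trend) in R 4.3.3, with Benjamini-Hochberg adjustment over all genes and a threshold of 0.05. Comparisons by genotype or drug used the groups of that setting, and those over time, by castration or between TKO and DKO, with 4 interaction terms, used all 11 groups. The balance of partner genes used an exact permutation test (scipy 1.17.1). Neighbours and gene structure came from GENCODE. The script was checked on simulated counts.

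Alternatives were an offset of 10, quantile normalization, leaving out the 25% of genes with the lowest mean, other groups in the fit, fibroblast, muscle or age covariates, 1 library per mouse, only libraries under 10% Lars2 and each mouse left out. After the data were seen, limma-voom on the recovered reads was added, as was leaving out each of the 8 intact DKO_EE mice. The 10 genes and the gene lists were chosen with earlier results of these data known. Named were the 10 genes, up to 3 called genes of a list with the smallest adjusted p, and for each gene the 3 most alike by Pearson r on log2 values; Igf1r, Zfp57, Usp29, Rian, Dio3, Mirg, Airn, Trappc9, Igfbp2, Suz12 and Notch2 were also named for their role or place, after their values were seen.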

Additional observations from a re-analysis of the deposited data

Results flagged for a closer look

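In 90 groups of 4 to 10 mice of the 10 genes, 6 single mice stood apart from the others of their group by the gap rule of Dixon, and chance gives about 1 in 20 groups. Igf2 stood at 4.65 in castrated DKO_EE mouse 4 (20 reads), while the other 4 mice were between 0.00 and 1.26. Plagl1 stood at 8.62 in castrated DKO mouse 2, the 99-week mouse, while the others were between 6.78 and 7.07. Igf2r was low in 12-week DKO_EE mouse 3 at 10.91 (others 11.58 to 11.71) and high in 12-week DKO_EP mouse 1 at 11.81 (others 11.53 to 11.56). Dlk1 stood at 2.46 in 12-week DKO_EE mouse 3 and at 1.15 in castrated DKO_EP mouse 2, which rest on 5 reads and 1 read, with 0.00 in the other mice of each group.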

How the results depend on the processing

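No difference of the 10 genes changed sign after being called. Over all alternatives and comparisons 2673 values kept their side of the threshold, 44 lost it and 29 gained it. The number of the 10 genes called from 12 weeks to endstage went from 4 to 0 in DKO with the muscle score, from 5 to 0 in DKO_EE and from 6 to 3 in DKO_EP with the fibroblast score. Castrated against intact DKO went from 0 to 1 with the fibroblast score, with libraries under 10% Lars2 and with quantile normalization, and 0 to 2 with a mouse left out. In DKO_EE it went from 2 to 1 with the fibroblast score, the filter on low genes or an offset of 10, and in DKO_EP from 1 to 0 with 1 library per mouse or limma-voom, and 0 to 1 with a mouse left out. In castrated mice DKO_EE against DKO went from 1 to 0 with age or the fibroblast score and from 1 to 2 with a mouse left out, and DKO_EE against DKO_EP from 0 to 1 in limma-voom and with all groups in the fit, and 0 to 1 with a mouse left out. TKO against DKO went from 1 to 2 with the fibroblast score, to 0 in limma-voom, with the filter or with only the compared groups, and 0 to 1 with a mouse left out. The cause of these changes was not tested, except that the filter removes Igf2 and Dlk1 from the test. Over all genes, calls for castrated DKO_EE against DKO went from 1278 to 454 with age and 31 with the fibroblast score, for DKO_EE against DKO_EP from 281 to 158 with the fibroblast score, for intact DKO_EE against DKO from 277 to 81 with age, 116 with 1 library per mouse and 94 under 10% Lars2, and for intact DKO_EE against DKO_EP from 271 to 16 with age and 443 with the fibroblast score. From 12 weeks to endstage they went from 6163 to 3360 in DKO with the muscle score and from 8483 to 4605 in DKO_EE with the fibroblast score; castrated against intact DKO went from 2338 to 990 with only the compared groups, and TKO against DKO from 95 to 36, 61 and 2 in limma-voom, with the filter and with only the compared groups. With all groups in the fit, DKO_EE against DKO at 12 weeks went from 0 to 84, DKO_EP against DKO from 0 to 4, DKO_EE against DKO_EP from 0 to 1, DKO_EP against DKO at intact endstage from 0 to 3 and CPI1688 from 0 to 3. Castrated DKO_EP against DKO went from 5 to between 0 and 45. In limma-voom the share of higher calls was 47.9% against 67.5% for intact DKO_EE against DKO and 26.1% against 60.5% for intact DKO_EE against DKO_EP. Quantile normalization moved the median log2 difference of all genes in DKO_EP from 12 weeks to endstage from -0.06 to 0.04. Leaving out libraries at or over 10% Lars2 removes every intact DKO_EP mouse, so those comparisons have no value. Dlk1, H19 at endstage and, in castrated mice, Igf2 rest on few reads, which limits what can be detected there. No paired analysis between groups was made, because the groups hold different mice.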

Other observations

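Of 37 measured of 43 listed imprinted genes outside the 10, 2 (5.41%) were called between DKO_EE and DKO at intact endstage and 2 between DKO_EE and DKO_EP, against 1.66% and 1.63% of all genes. In castrated mice 4 (10.8%) and 2 (5.41%) were called, against 7.72% and 1.7%. Counts this small say nothing about imprinted genes as a group, and the genes are described singly. Sgce, a sarcoglycan expressed from the paternal allele, stood at 7.80 ± 0.47 (n = 8) in intact DKO_EE against 5.44 ± 0.29 (n = 3) in DKO and 4.02 ± 0.26 (n = 3) in DKO_EP (differences 2.36, adjusted p = 0.0017, and 3.78, adjusted p = 1.7e-05, limma). Peg10, a retrotransposon-derived gene read from the same promoter region as Sgce, stood at 6.82 ± 0.92, 4.35 ± 0.59 and 3.13 ± 0.94 in the same mice (2.47, adjusted p = 0.042, and 3.70, adjusted p = 0.0046). Sgce and Peg10 were the 2 called in each of those comparisons. In castrated mice Sgce stood at 8.22 ± 0.38 (n = 5) in DKO_EE, 5.53 ± 1.33 (n = 4) in DKO and 4.60 ± 1.97 (n = 5) in DKO_EP, and was called against DKO_EP (3.62, adjusted p = 0.041).

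Nnat, a paternally expressed proteolipid of neural tissue, stood at 8.87 ± 0.51 in castrated DKO_EE against 5.07 ± 1.33 in DKO and 5.10 ± 0.85 in DKO_EP, with no overlap (3.80, adjusted p = 0.0024, and 3.77, adjusted p = 0.0026). High Nnat was not confined to DKO_EE: intact mice held it at 9.71 in DKO_EP and 7.75 in DKO_EE. Castrated DKO_EP mice differed from intact ones by -4.62 (limma, adjusted p = 0.0438). Herc3 (1.28) and Nap1l5 (3.41), neighbours on chromosome 6, and Copg2 were, like Nnat, higher in castrated DKO_EE than in DKO. Snrpn, of the Prader-Willi domain, was higher in castrated than intact mice of DKO_EE (6.52 against 1.79) and of DKO_EP (6.83 against 0.89). Lars2 took 14.2% to 21.6% of reads in intact DKO_EP libraries and up to 35.3% in intact DKO_EE. It took at most 0.00482% in the castrated libraries of both. Whether this bears on Snrpn was not tested. From 12 weeks to intact endstage Mest rose in DKO from 5.35 to 8.25 and in DKO_EP from 4.89 to 9.38.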
